A study of Mus musculus with 28 samples.

Results

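Transcripts of 10 genes of the TGF-beta and activin pathway were followed through skin inflammation, recovery and wounding in mouse epidermal stem cells. The genes were 4 ligand genes (Tgfb1, Tgfb2, Tgfb3 and Inhba), 2 receptor genes (Tgfbr1 and Tgfbr2), the signal transducer Smad3, the inhibitors Smad7 and Skil, and the target Tgfbi. They were found by matching each Ensembl gene ID, without its version, to a mouse symbol, and all 10 were present among 47729 gene IDs. All 10 passed the filter on low counts, which kept 17299 genes for testing.

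The cells came from the skin of female C57BL/6 mice that were treated from postnatal day 60 for 6 days. Imiquimod, a TLR7 agonist that provokes psoriasis-like inflammation when rubbed on skin, was set against Vanicream, a bland cream, which is called control here. Of the 8 groups, each of 2 libraries, a first pair was collected at the end of the 6-day course (imiquimod and control, day 6) and a second 30 days after it (post-imiquimod and control, day 30). The other 4 groups were wounded at 30 days and collected 6 h or 12 h later (post-imiquimod and control at each time). Cells were sorted as integrin alpha6 and beta1 positive, Sca1 positive and CD34 negative, a gate that enriches for basal cells of the epidermis. The labels do not say how many animals a library holds, or whether the 2 libraries of a group came from separate animals, so the p-values measure only the spread between libraries.

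The libraries held 23623968 to 76993427 assigned reads. Basal markers were abundant in all of them: the summed level of Krt5, Krt14, Itga6, Itgb1, Itgb4, Ly6a, Trp63 and Col17a1 was 38300 to 75460 CPM (reads of a gene scaled to a common library size, with TMM factors), while Cd34 reached 2.83 to 11.1 CPM at day 6 and at most 2.08 CPM elsewhere. Both day 30 libraries numbered 1 held at most 1 Xist read and 6023 or more reads of Y-linked genes, against the label female, while the other 14 held at least 11484 Xist reads. Mitochondrial genes took 7.65% of the reads of the first day 6 imiquimod library and 3.31% of those of the first day 6 control library, against at most 2.48% in any other. Values without these libraries, fitted with both libraries numbered 1 of a day left out, stand beside some of the results and are not printed for the rest.

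TGF-beta ligands are secreted in a latent form, are freed by integrins and proteases, and bind a type II receptor that recruits and phosphorylates a type I receptor. The type I receptor phosphorylates SMAD2 and SMAD3, which enter the nucleus with SMAD4, and activins use other receptors but the same SMADs. In skin the pathway is known for restraining the division of keratinocytes, for promoting their migration over wounds and for driving matrix deposition in the dermis. Smad7 blocks the type I receptor and Skil, which encodes SnoN, represses SMAD targets, and both are themselves induced by the pathway as feedback.

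Promoter sequences were looked up in RefSeq (GRCm38.p6) for the 10 genes, and 7 of them matched; Tgfb3, Smad7 and Skil are named only. Each window holds 300 bases, 250 before to 50 after a RefSeq start, written 5′ to 3′ on the gene's strand. Shown are those of the 4 genes that were higher in every wound comparison (Inhba, Tgfbr1, Tgfbr2 and Smad3) and of 2 genes that, with Smad3, were lower at day 6 (Tgfb2 and Tgfbi), so that the windows can be read beside those results. Capitals mark the SMAD-binding letters CAGAC on either strand.
Inhba, chr13:16011601-16011900, plus strand: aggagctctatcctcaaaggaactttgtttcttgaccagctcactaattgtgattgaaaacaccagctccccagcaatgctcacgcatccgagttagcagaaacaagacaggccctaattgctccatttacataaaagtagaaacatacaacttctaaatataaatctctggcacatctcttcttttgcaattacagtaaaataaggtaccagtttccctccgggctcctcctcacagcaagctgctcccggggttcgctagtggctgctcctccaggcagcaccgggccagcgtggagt
Tgfbr1, chr4:47352972-47353271, plus strand: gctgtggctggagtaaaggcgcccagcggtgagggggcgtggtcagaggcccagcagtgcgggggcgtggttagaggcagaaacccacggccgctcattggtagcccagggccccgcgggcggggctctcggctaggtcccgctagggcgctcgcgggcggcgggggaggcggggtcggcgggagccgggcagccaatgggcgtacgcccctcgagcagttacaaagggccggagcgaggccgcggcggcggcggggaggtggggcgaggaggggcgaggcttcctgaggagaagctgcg
Tgfbr2, chr9:116175314-116175613, minus strand: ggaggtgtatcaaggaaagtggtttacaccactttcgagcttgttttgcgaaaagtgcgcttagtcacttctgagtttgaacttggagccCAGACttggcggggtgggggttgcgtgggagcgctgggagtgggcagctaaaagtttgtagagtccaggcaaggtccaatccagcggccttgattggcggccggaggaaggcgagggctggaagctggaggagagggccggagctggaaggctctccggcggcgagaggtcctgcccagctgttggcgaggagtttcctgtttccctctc
Smad3, chr9:63757945-63758244, minus strand: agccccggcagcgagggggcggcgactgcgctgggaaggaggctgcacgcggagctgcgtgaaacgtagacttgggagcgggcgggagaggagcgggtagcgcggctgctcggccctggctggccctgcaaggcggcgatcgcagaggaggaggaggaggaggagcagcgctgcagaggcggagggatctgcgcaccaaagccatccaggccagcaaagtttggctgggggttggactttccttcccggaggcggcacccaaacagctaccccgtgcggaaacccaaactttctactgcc
Tgfb2, chr1:186705940-186706239, minus strand: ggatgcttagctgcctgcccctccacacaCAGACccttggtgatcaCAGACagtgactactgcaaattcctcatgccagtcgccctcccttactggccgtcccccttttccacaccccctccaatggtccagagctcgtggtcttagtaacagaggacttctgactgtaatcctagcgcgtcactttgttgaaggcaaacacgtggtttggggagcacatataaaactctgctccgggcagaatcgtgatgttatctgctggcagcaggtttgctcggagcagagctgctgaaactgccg
Tgfbi, chr13:56609336-56609635, plus strand: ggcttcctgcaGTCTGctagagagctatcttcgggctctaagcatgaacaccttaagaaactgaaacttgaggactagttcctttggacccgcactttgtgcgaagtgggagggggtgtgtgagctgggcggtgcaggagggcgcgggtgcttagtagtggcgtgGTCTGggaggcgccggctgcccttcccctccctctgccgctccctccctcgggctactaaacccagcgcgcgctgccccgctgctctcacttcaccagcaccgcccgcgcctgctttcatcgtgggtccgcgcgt
The Tgfb2 window holds 2 matches to CAGAC, the Tgfbi window 2 and the Tgfbr2 window 1, while the windows shown for Inhba, Tgfbr1 and Smad3 hold none. Tgfbr1 has another RefSeq window, not shown (chr4:47385966-47386265), which holds 1. This 5-letter motif is common, with a match in 49.6% of 32851 RefSeq promoter windows of the same length. The AP-1 letters TGANTCA, which lie in 7.81% of those windows, were found in none of the windows of the 7 genes. A match here describes letters in a window and not a bound site.

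Across the 8 groups the widest range belonged to Inhba, whose group mean log2 CPM spanned 6.12, followed by Tgfb3 at 2.82, Tgfb2 at 2.76 and Smad3 at 2.69. The other 6 genes spanned 0.96 for Tgfb1 to 2.19 for Skil. The Inhba order of group means ran from 9.71 CPM in post-imiquimod and 8.35 CPM in control 12 h wounds, whose libraries overlapped, through 3.62 CPM in post-imiquimod and 1.40 CPM in control 6 h wounds and 0.851 CPM in imiquimod and 0.554 CPM in control skin at day 6, down to 0.24 CPM in post-imiquimod and 0.083 CPM in control skin at day 30. In that order the libraries of control 6 h wounds overlapped those of day 6 imiquimod skin, and the 2 groups of day 6 overlapped each other, while the other neighbours were apart. Skil had its highest means at day 30 (120.4 CPM post-imiquimod and 141.9 CPM control), then 73.6 CPM in imiquimod skin at day 6, then the wounds, and its lowest in control skin at day 6 (31.4 CPM). Reads were assigned to whole genes and no transcript lengths were at hand, so levels are compared between groups and not between genes.

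**Figure D1:**
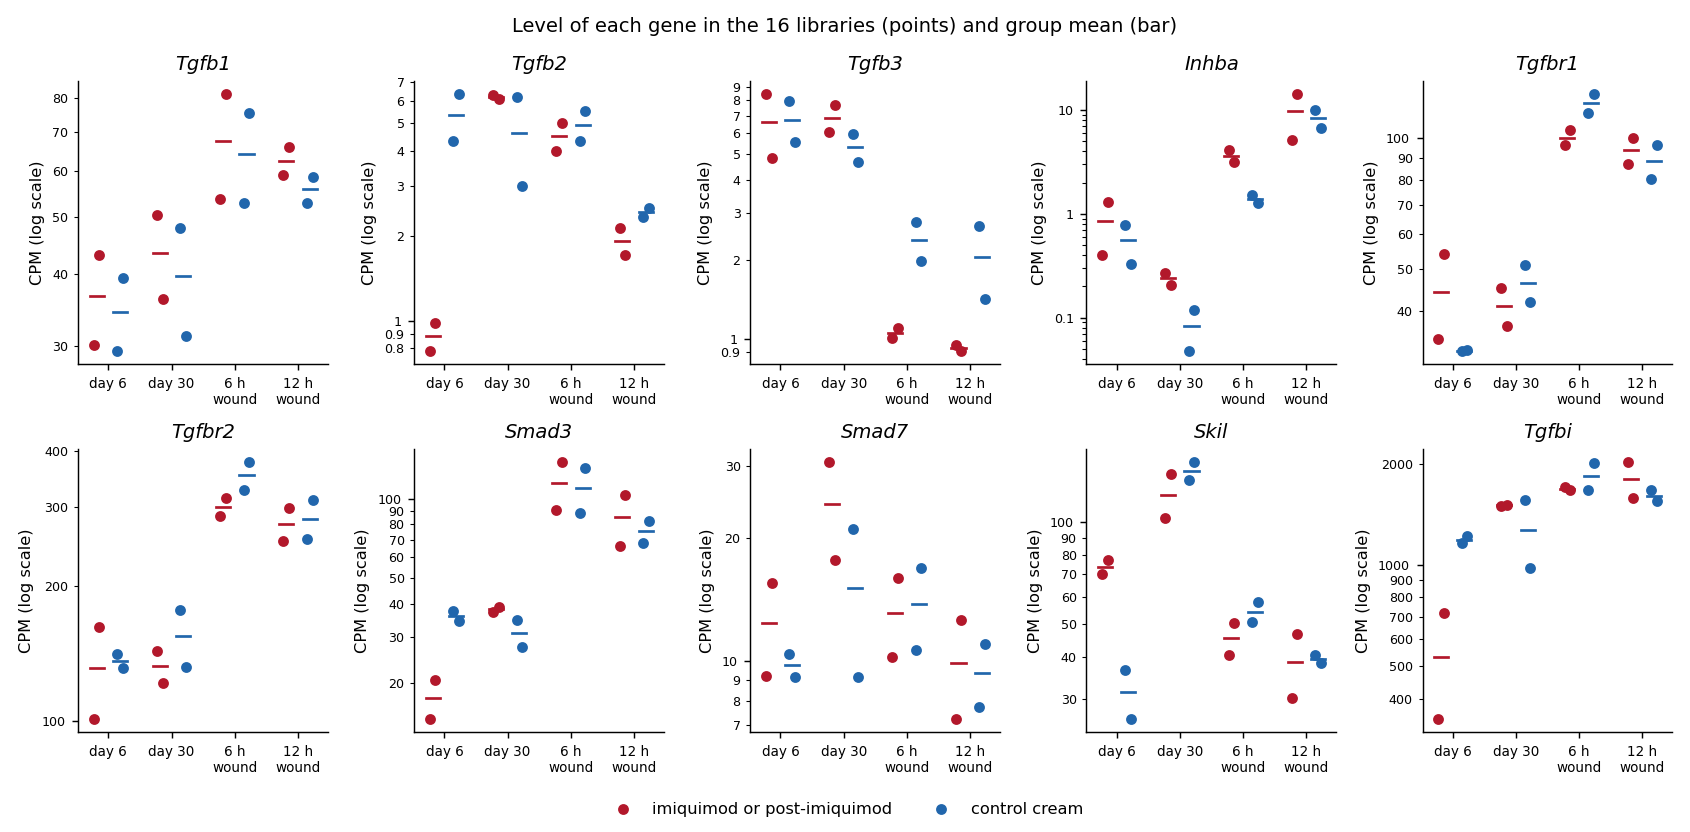
Level of each gene in CPM on a log axis, with 1 point per library and a bar at the mean of the 2 libraries, red for imiquimod or post-imiquimod and blue for control. Tgfb2, Smad3 and Tgfbi sit low in the imiquimod libraries of day 6, while Inhba, Tgfbr1, Tgfbr2 and Smad3 sit higher in all wound libraries than at day 30.

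The first comparison asked what 6 days of imiquimod did to these transcripts in the inflamed epidermis. Tgfb2, Smad3 and Tgfbi fell and Skil rose, and the other 6 genes did not pass the test. Across all genes 36.6% were called in this comparison, so 4 of 10 is close to the background. The calls of Tgfb2 and Skil held without both day 6 libraries numbered 1, which leaves 1 library per group. Those of Smad3 and Tgfbi were lost there, and Tgfbr1 was called. The median log2 change of the 10 genes was 0.033, beside 0.100 for all genes tested.

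Tgfb2 (ENSMUSG00000039239, chromosome 1, 186622787 to 186709697 in GRCm38.p6) encodes TGF-beta 2, the ligand best known in skin from hair follicle development. It stood at 0.781 and 0.984 CPM in imiquimod skin, against 4.33 and 6.34 CPM in control skin. The 2 imiquimod libraries were the lowest of all 16. The log2 change was -2.60 ± 0.37 (SE; edgeR quasi-likelihood test, adjusted p = 0.000188), and it kept its call when any single library was left out (-2.88 to -2.31) and without both libraries numbered 1 (-2.69, edgeR, adjusted p = 0.00471).

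Smad3 (ENSMUSG00000032402, chromosome 9, 63646766 to 63757994), the transducer shared by TGF-beta and activin, had 14.6 and 20.6 CPM in imiquimod skin, against 37.6 and 34.5 CPM in control skin. The groups did not overlap, and Smad3 fell by 1.04 ± 0.27 on the log2 scale (SE; edgeR, adjusted p = 0.0101). Tgfbi (ENSMUSG00000035493, chromosome 13, 56609586 to 56639359), which encodes a secreted matrix protein that binds collagens and integrins, had 347 and 717.6 CPM in imiquimod skin, against 1160 and 1216 CPM in control skin. Its log2 change was -1.16 ± 0.30 (edgeR, adjusted p = 0.00935), and its groups did not overlap, although its 2 imiquimod libraries lay far apart. Without the first imiquimod library, the one rich in mitochondrial reads, neither gene passed the threshold: Smad3 was at -0.83 (edgeR, adjusted p = 0.0799) and Tgfbi at -0.75 (edgeR, adjusted p = 0.0542).

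Skil (ENSMUSG00000027660, chromosome 3, 31095058 to 31122923) was the 1 member that rose, with 70.2 and 77.0 CPM in imiquimod skin, against 36.6 and 26.1 CPM in control skin. The log2 change was 1.23 ± 0.22 (SE; edgeR, adjusted p = 0.001), and 1.56 without both libraries numbered 1 (edgeR, adjusted p = 0.00592). The other inhibitor, Smad7 (ENSMUSG00000025880), had 9.21 and 15.6 CPM in imiquimod skin, against 10.4 and 9.17 CPM in control skin, and the groups overlapped (log2 change 0.33 ± 0.45, edgeR, adjusted p = 0.603).

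The receptors and the other ligands were not called at day 6. Tgfbr1 (ENSMUSG00000007613, chromosome 4, 47353222 to 47414926), the type I receptor kinase, had 34.5 and 54.0 CPM in imiquimod skin, against 32.3 and 32.5 CPM in control skin, and its log2 change of 0.45 ± 0.19 missed the threshold (edgeR, adjusted p = 0.0877). With the replicate number as a block it was 0.41 and passed (edgeR, adjusted p = 0.0322). Without the first imiquimod library it was 0.72 and passed as well (edgeR, adjusted p = 0.00934), and without the second it was 0.067 (edgeR, adjusted p = 0.831). Tgfbr2 (ENSMUSG00000032440, chromosome 9, 116087695 to 116175363), the ligand-binding type II receptor, had 101.1 and 161.9 CPM in imiquimod skin, against 141.4 and 131.3 CPM in control skin, with overlap. Tgfb1 (ENSMUSG00000002603, chromosome 7, 25687002 to 25705077), which encodes TGF-beta 1, the founding member of the family, Tgfb3 (ENSMUSG00000021253, chromosome 12, 86056743 to 86079041) and Inhba (ENSMUSG00000041324, chromosome 13, 16004256 to 16031609), which encodes the beta-A chain of activin A, overlapped between groups as well, with log2 changes of 0.09, -0.03 and 0.53.

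Markers of other cells moved with imiquimod at day 6. Of 11 macrophage and monocyte markers tested, 9 rose (Adgre1, C1qa, C1qb, C1qc, Lyz2, Mrc1, Cd14, Itgam and Ptprc), and the list of 12 summed to 76.3 and 91.1 CPM in imiquimod skin, against 19.6 and 10.6 CPM in control skin. The 6 hair follicle genes summed to 497.6 and 605.4 CPM in imiquimod skin, against 6559 and 10180 CPM in control skin. Nearly all of that was Krt15, a keratin of the follicle bulge and of basal cells, while Sox9 rose and Lgr5, Lhx2, Krt75 and Krt71 did not pass. Of 7 suprabasal markers Krt1 rose and Dsg1a fell, and of 12 fibroblast markers Thy1 fell. H2-Ab1 of the 5 Langerhans and dendritic markers tested rose, in a list that summed to 362.1 and 185.4 CPM in imiquimod skin, against 155.7 and 165.3 CPM in control skin. Tie1 of the 4 endothelial markers tested rose, and none of the 4 melanocyte markers or the 1 T cell marker tested was called. Every suprabasal and fibroblast gene had reads in every day 6 library, and the part of these cells in the results was not tested. In sorted bulk cells, fewer cells of a type and less RNA per cell cannot be told apart.

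The second comparison asked what remained 30 days after the course. None of the 10 genes was called by edgeR, and none had an unadjusted p under 0.05. DESeq2 called none of them either, and none was called without both libraries numbered 1. The background was low, with 0.0116% of genes called by edgeR, which is 2 of 17299, and 20 of 16470 called by DESeq2. Tgfb2 had 6.29 and 6.09 CPM in post-imiquimod skin, against 6.20 and 3.01 CPM in control skin. Smad3 had 37.3 and 38.9 CPM in post-imiquimod skin, against 34.7 and 27.3 CPM in control skin, Tgfbi had 1500 and 1509 CPM against 1557 and 977.7 CPM, and Skil 102.5 and 138.4 CPM against 133 and 150.8 CPM. The log2 changes were 0.44 ± 0.34 for Tgfb2, 0.30 ± 0.27 for Smad3, 0.25 ± 0.30 for Tgfbi and -0.24 ± 0.22 for Skil, and the libraries overlapped for all of these but Smad3.

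The change at day 6 was set against the change at day 30 in 1 test of the difference. It was called for the same 4 genes that were called at day 6: Tgfb2 at -3.04 ± 0.50 (edgeR, adjusted p = 0.00148), Smad3 at -1.34 ± 0.38 (edgeR, adjusted p = 0.0263), Tgfbi at -1.41 ± 0.43 (edgeR, adjusted p = 0.0314) and Skil at 1.47 ± 0.31 (edgeR, adjusted p = 0.00569), on the log2 scale. The background was 22.5% of genes. The Tgfb2 and Skil differences kept their calls when any 1 library was left out, and were -3.75 and 1.22 without both day 30 libraries numbered 1 and -3.13 and 1.79 without both of day 6. The Smad3 and Tgfbi differences did not: without the first day 6 imiquimod library they were -1.15 (edgeR, adjusted p = 0.0739) and -1.02 (edgeR, adjusted p = 0.0536), and each also missed the threshold without the second day 30 library of either arm or without either day 6 control library, and Tgfbi also without the first day 30 post-imiquimod library (edgeR, adjusted p = 0.0513) or with the compared libraries alone (edgeR, adjusted p = 0.0942). Both passed without both day 30 libraries numbered 1, Smad3 at -1.68 and Tgfbi at -1.92, and neither passed without both of day 6 (-1.05 and -1.02, edgeR, adjusted p = 0.161 and 0.101). Tgfbr1 was at 0.63 ± 0.28 (edgeR, adjusted p = 0.123) and passed with the block (0.59, edgeR, adjusted p = 0.0417) and without the first day 6 imiquimod library (0.87, edgeR, adjusted p = 0.0201).

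**Figure D2:**
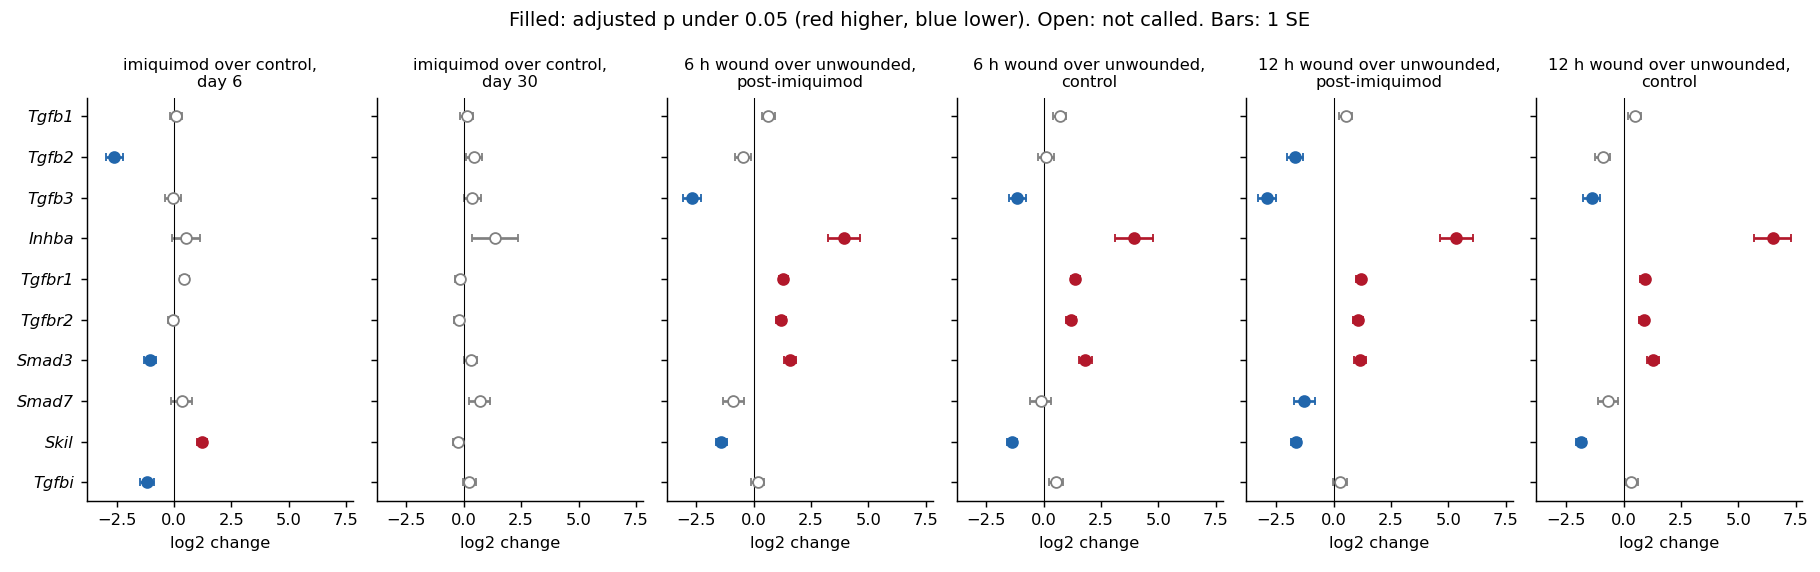
Log2 change of each gene in 6 comparisons, with bars of 1 SE and filled points where the adjusted p was under 0.05. Inhba, Tgfbr1, Tgfbr2 and Smad3 lie right of 0 and Tgfb3 and Skil left of 0 in all 4 wound panels, whereas no point is filled at day 30.

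Wounding changed 6 to 8 of the 10 genes in each comparison with unwounded skin of the same arm. At 6 h, 4 genes rose (Inhba, Tgfbr1, Tgfbr2 and Smad3) and 2 fell (Tgfb3 and Skil) in post-imiquimod skin, and 4 rose and 2 fell in control skin, the same 6 genes in both arms. At 12 h, 4 rose and 4 fell in post-imiquimod skin, where Tgfb2 and Smad7 joined the genes that fell, and 4 rose and 2 fell in control skin. The background was 38.7% of genes at 6 h and 37.6% at 12 h in post-imiquimod skin, and 34.7% at 6 h and 30.8% at 12 h in control skin. The 10 genes were chosen with earlier results of these data known, so a count above these shares is not evidence about them as a set. A fit without both day 30 libraries numbered 1, which leaves 1 unwounded library per arm, also called Tgfb1 at 6 h in both arms. It lost the calls of Tgfb3 in control wounds and of Smad7 in 12 h post-imiquimod wounds. The 6 h and 12 h wounds of an arm were set against the same 2 unwounded libraries. The median log2 change of the 10 genes at 6 h was 0.40 in post-imiquimod and 0.62 in control wounds, beside -0.020 and 0.013 for all genes tested.

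Among the ligands, Inhba went up most. In post-imiquimod skin it had 0.272 and 0.207 CPM unwounded, 4.07 and 3.16 CPM at 6 h and 5.12 and 14.3 CPM at 12 h, and in control skin 0.047 and 0.118 CPM unwounded, 1.52 and 1.27 CPM at 6 h and 10.1 and 6.65 CPM at 12 h. Every wound library lay above every unwounded one. The log2 changes at 6 h were 3.93 ± 0.70 in post-imiquimod wounds (edgeR, adjusted p = 0.00087) and 3.93 ± 0.82 in control wounds (edgeR, adjusted p = 0.0028). At 12 h they were 5.35 ± 0.71 in post-imiquimod wounds (edgeR, adjusted p = 0.000138) and 6.50 ± 0.80 in control wounds (edgeR, adjusted p = 0.000135). The unwounded level rests on few reads, 12 over both post-imiquimod libraries and 5 over both control libraries. The ratio of summed reads was therefore also given an exact binomial interval for counting error only: 16.4 (95% interval 9.29 to 32) at 6 h and 46.5 (26.5 to 90.3) at 12 h in post-imiquimod skin, and 15.9 (6.63 to 49.8) at 6 h and 86.2 (36.8 to 266) at 12 h in control skin. The Inhba log2 changes all passed without both day 30 libraries numbered 1, at 4.09 and 5.51 in post-imiquimod and 3.52 and 6.07 in control wounds.

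Tgfb3, the isoform linked to repair with little scarring in embryos, went the other way. In post-imiquimod skin it had 6.07 and 7.67 CPM unwounded, 1.01 and 1.11 CPM at 6 h and 0.955 and 0.902 CPM at 12 h, and in control skin 5.96 and 4.69 CPM unwounded, 2.77 and 1.99 CPM at 6 h and 2.67 and 1.42 CPM at 12 h. All 4 post-imiquimod wound libraries lay below all 4 control wound libraries. The log2 change was -2.70 ± 0.39 (edgeR, adjusted p = 0.000194) at 6 h and -2.89 ± 0.39 (edgeR, adjusted p = 0.000139) at 12 h in post-imiquimod wounds, and -2.90 and -3.08 without both day 30 libraries numbered 1. In control wounds it was -1.15 ± 0.37 (edgeR, adjusted p = 0.028) at 6 h and -1.39 ± 0.37 (edgeR, adjusted p = 0.0127) at 12 h. Those 2 control calls were not stable: they were lost without the first unwounded control library, one of those with Y-linked reads (edgeR, adjusted p = 0.123 and 0.0607), and without the second control wound library of the same time (edgeR, adjusted p = 0.184 and 0.144).

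Tgfb2 fell at 12 h in post-imiquimod wounds, to 2.13 and 1.72 CPM, against 6.29 and 6.09 CPM unwounded (log2 change -1.69 ± 0.35, edgeR, adjusted p = 0.00228; -1.70 without both day 30 libraries numbered 1). In control wounds at 12 h it had 2.33 and 2.51 CPM, against 6.20 and 3.01 CPM unwounded, and missed the threshold (-0.92 ± 0.34, edgeR, adjusted p = 0.059), but passed with the replicate block (-0.85, edgeR, adjusted p = 0.0341), with DESeq2 (-0.94, adjusted p = 0.032) and without the second unwounded control library (-1.35, edgeR, adjusted p = 0.0127). Without the first unwounded control library it was -0.33 (edgeR, adjusted p = 0.546). At 6 h Tgfb2 was not called in either arm. Tgfb1 was not called in any wound comparison, although its wound libraries (53.8 and 81.4 CPM at 6 h, 59.0 and 65.9 CPM at 12 h) lay above the unwounded ones (50.5 and 36.2 CPM) in post-imiquimod skin and likewise in control skin. With the replicate block Tgfb1 passed in all 4 comparisons: 0.63 at 6 h and 0.54 at 12 h in post-imiquimod wounds (edgeR, adjusted p = 0.000455 and 0.00109), and 0.71 at 6 h and 0.52 at 12 h in control wounds (edgeR, adjusted p = 0.000299 and 0.00171). That block pairs libraries within a time and not across times, so its p-values for wounded against unwounded skin leave out the spread between replicate numbers and are too small. Tgfb1 also passed in all 4 comparisons without the filter on low counts (edgeR, adjusted p = 0.00303 at 6 h and 0.0112 at 12 h post-imiquimod, 0.00133 and 0.0195 control). It passed at 6 h without both day 30 libraries numbered 1, at 0.86 in post-imiquimod wounds (edgeR, adjusted p = 0.0484) and 1.01 in control wounds (edgeR, adjusted p = 0.0302), and not at 12 h.

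Both receptors rose. Tgfbr1 had 45.2 and 36.8 CPM unwounded, 96.0 and 104.2 CPM at 6 h and 87.1 and 99.9 CPM at 12 h in post-imiquimod skin, and 50.8 and 41.9 CPM unwounded, 113.8 and 126.1 CPM at 6 h and 80.5 and 96.2 CPM at 12 h in control skin. Tgfbr2 had 143.7 and 121.7 CPM unwounded, 285.7 and 313.7 CPM at 6 h and 252.2 and 297.9 CPM at 12 h in post-imiquimod skin, and 177 and 132.3 CPM unwounded, 327.5 and 378 CPM at 6 h and 254.1 and 310.9 CPM at 12 h in control skin. For both genes the wounded and unwounded libraries were apart in each arm. In post-imiquimod wounds the log2 change of Tgfbr1 was 1.29 ± 0.20 at 6 h and 1.19 ± 0.20 at 12 h (edgeR, adjusted p = 0.000283 and 0.00052) and that of Tgfbr2 1.18 ± 0.22 and 1.05 ± 0.22 (edgeR, adjusted p = 0.00108 and 0.00235). In control wounds Tgfbr1 was at 1.37 ± 0.20 and 0.93 ± 0.20 (edgeR, adjusted p = 0.000246 and 0.00331) and Tgfbr2 at 1.19 ± 0.22 and 0.87 ± 0.22 (edgeR, adjusted p = 0.00127 and 0.00917). All 8 values passed without both day 30 libraries numbered 1, with Tgfbr1 at 1.41 and 1.31 and Tgfbr2 at 1.27 and 1.14 in post-imiquimod wounds, and Tgfbr1 at 1.49 and 1.04 and Tgfbr2 at 1.39 and 1.06 in control wounds. Tgfbr2 in 12 h control wounds was lost without the second unwounded control library (edgeR, adjusted p = 0.0742) or the second 12 h control library (edgeR, adjusted p = 0.0801).

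Smad3 rose at both times in both arms. It had 37.3 and 38.9 CPM unwounded, 90.9 and 138.2 CPM at 6 h and 66.5 and 103.4 CPM at 12 h in post-imiquimod skin, and 34.7 and 27.3 CPM unwounded, 88.6 and 130.6 CPM at 6 h and 68.0 and 82.5 CPM at 12 h in control skin. At 6 h the log2 change was 1.59 ± 0.27 in post-imiquimod wounds (edgeR, adjusted p = 0.000759) and 1.82 ± 0.28 in control wounds (edgeR, adjusted p = 0.000435). At 12 h it was 1.16 ± 0.27 in post-imiquimod wounds (edgeR, adjusted p = 0.00538) and 1.28 ± 0.27 in control wounds (edgeR, adjusted p = 0.00406). The 12 h post-imiquimod call was lost without the second 12 h library of that group (0.77, edgeR, adjusted p = 0.071). Smad3 passed throughout without both day 30 libraries numbered 1, at 1.52 and 1.09 in post-imiquimod and 1.98 and 1.43 in control wounds.

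Of the inhibitors, Skil fell in every wound comparison. It had 102.5 and 138.4 CPM unwounded, 40.4 and 50.4 CPM at 6 h and 30.2 and 46.7 CPM at 12 h in post-imiquimod skin, and 133 and 150.8 CPM unwounded, 50.6 and 58.1 CPM at 6 h and 40.5 and 38.3 CPM at 12 h in control skin. In each arm every unwounded library of day 30 lay above every wounded one. Control skin of day 6, also unwounded but from younger mice, had a mean of 31.4 CPM, below the mean of every wound group. The wounds were not tested against it. The log2 changes were -1.41 ± 0.22 at 6 h and -1.65 ± 0.23 at 12 h in post-imiquimod wounds (edgeR, adjusted p = 0.000373 and 0.000149) and -1.39 ± 0.22 at 6 h and -1.85 ± 0.23 at 12 h in control wounds (edgeR, adjusted p = 0.000541 and 0.000122). Without both day 30 libraries numbered 1 they were -1.65 and -1.88 in post-imiquimod and -1.50 and -1.97 in control wounds, and all passed. Smad7 passed in 12 h post-imiquimod wounds, with 7.23 and 12.6 CPM, against 30.7 and 17.7 CPM unwounded (-1.28 ± 0.45, edgeR, adjusted p = 0.0436). That call was lost without the first unwounded post-imiquimod library, which carries Y-linked reads (-0.86, edgeR, adjusted p = 0.248), or the first 12 h library (-0.95, edgeR, adjusted p = 0.238). In 6 h post-imiquimod wounds Smad7 was at -0.89 ± 0.45 (edgeR, adjusted p = 0.14) and passed with the block (-0.87, edgeR, adjusted p = 0.00924, too small across times). It also passed there without the filter on low counts (-0.85, edgeR, adjusted p = 0.00707). The target Tgfbi was not called in any wound comparison, with log2 changes of 0.17 ± 0.30 at 6 h and 0.27 ± 0.30 at 12 h in post-imiquimod wounds and 0.54 ± 0.30 at 6 h and 0.35 ± 0.30 at 12 h in control wounds. Without the filter on low counts it passed in 6 h control wounds (0.58, edgeR, adjusted p = 0.0382).

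Markers of other cells and of differentiation also moved with wounding. In these sorted bulk cells, cell number and RNA per cell cannot be told apart. The suprabasal markers summed to 5447 to 9339 CPM in the wounds, against 15760 to 31230 CPM at day 30. Of the 7, Krt10 fell in all 4 comparisons and no marker rose. The macrophage markers summed to 7.60 to 18.0 CPM in the wounds, against 3.03 to 3.51 CPM at day 30, where C1qb and C1qc had no read in either group, and Mrc1 rose in all 4 comparisons. The hair follicle genes summed to 1051 to 2378 CPM in the wounds, against 5134 to 10370 CPM unwounded, mostly Krt15, which fell in all 4 with Sox9. Lgr5 of that list rose in control wounds at both times and in post-imiquimod wounds at 12 h, and Lhx2 in control wounds at 6 h. Of 5 Langerhans and dendritic markers tested, Epcam rose at 6 h and H2-Ab1 at 12 h in both arms, and the list summed to 375.7 to 505.6 CPM at 6 h and 200.1 to 281.9 CPM at 12 h, against 154 to 218.5 CPM unwounded, mostly Epcam. Of 4 melanocyte markers tested, Dct, Kit and Tyrp1 rose in control wounds at 6 h and Pmel fell in post-imiquimod wounds at both times. Tie1 of the 4 endothelial markers tested rose and Vwf fell in post-imiquimod wounds at both times and in control wounds at 12 h.

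The fibroblast list summed to 379.7 to 549.4 CPM in the wounds, against 198.2 to 492.2 CPM unwounded. In post-imiquimod wounds 1 of 12 rose at each time, with a median log2 change of -1.20 at 6 h and -1.74 at 12 h, and in control wounds 3 rose at 6 h and 1 at 12 h, with a median of 2.92 at 6 h and 0.81 at 12 h. Among unwounded libraries Col1a1 had 50.6 and 0.069 CPM in post-imiquimod skin, against 0.993 and 0.974 CPM in control skin of day 30, the first being the post-imiquimod library with Y-linked reads. The part of these shifts in the results was not tested, and none of the 12 was called between the arms.

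The wound response was then compared between skin that had and had not been through imiquimod, the question in the title of the study. Set directly against control wounds, post-imiquimod wounds had none of the 10 genes called by edgeR at 6 h, where 0.0347% of genes were called, and none at 12 h, where 0% were. At an unadjusted p under 0.05 there were 2 of the 10 at 6 h (Tgfb3 and Inhba) and 1 at 12 h (Tgfb3), beside 1091 and 425 of all 17299 genes. DESeq2 called none of the 10 at either time, and it called 131 genes in all at 6 h and 27 at 12 h. Averaged over day 30 and both wound times, none of the 10 genes was called by edgeR, at a background of 0.202%, or by DESeq2, which called 164 of 16470 genes. At an unadjusted p under 0.05 there were 2 of the 10 and 1143 of all 17299 genes.

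Tgfb3 came nearest. Its level was 1.01 and 1.11 CPM in post-imiquimod 6 h wounds, against 2.77 and 1.99 CPM in control 6 h wounds, and 0.955 and 0.902 CPM in post-imiquimod 12 h wounds, against 2.67 and 1.42 CPM in control 12 h wounds. The libraries were apart at both times. At 6 h those of Inhba, Tgfbr1, Tgfbr2 and Skil were apart as well, and at 12 h those of Tgfb1 and Tgfb2. The share of all genes that were apart was not counted, and 2 libraries against 2 are easily apart by chance. The Tgfb3 log2 difference was -1.18 ± 0.38 at 6 h (edgeR, unadjusted p = 0.00837, adjusted p = 0.51) and -1.13 ± 0.38 at 12 h (edgeR, unadjusted p = 0.0108, adjusted p = 1). As a difference between the 2 wound effects, which also takes in the unwounded levels, Tgfb3 was at -1.56 ± 0.52 at 6 h (edgeR, adjusted p = 0.67) and -1.50 ± 0.52 at 12 h (edgeR, adjusted p = 1).

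Inhba had 4.07 and 3.16 CPM in post-imiquimod 6 h wounds, against 1.52 and 1.27 CPM in control 6 h wounds, and the libraries were apart. The log2 difference of 1.37 ± 0.57 did not pass (edgeR, unadjusted p = 0.031, adjusted p = 0.732). By 12 h the libraries overlapped, and the difference was 0.22 ± 0.53. Unwounded Inhba stood at 6 reads in each post-imiquimod library, against 1 and 4 reads in the control libraries, a ratio of 2.58 with a 95% counting interval of 0.847 to 9.36. The wound effect of Inhba at 6 h was 3.93 on the log2 scale in both arms, and at 12 h it differed by -1.15 ± 1.13, post-imiquimod minus control (edgeR, adjusted p = 1).

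Of the 12 fibroblast genes, 7 had an unadjusted p under 0.05 in the difference of the wound effects at 6 h and 1 at 12 h, with medians of -4.46 and -2.78 on the log2 scale, and none was called. Set directly against control wounds, post-imiquimod wounds had a fibroblast median of -2.10 at 6 h, with 1 of 12 at an unadjusted p under 0.05, and of 0.11 at 12 h, with none. Their part in the results was not tested.

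For the other 8 genes the wound effects of the arms differed by -0.77 to 0.26 on the log2 scale. None of the 10 differences was called by edgeR or DESeq2 at either time. At each time 0% of all genes were called by edgeR; 1057 genes had an unadjusted p under 0.05 at 6 h and 503 at 12 h, of the 10 genes Tgfb3 alone at each time, and DESeq2 called 27 and 1 genes. The standard errors of these differences, 0.27 for Tgfbr1 to 0.64 for Smad7 outside Inhba, set what could be seen with 2 libraries a group. A p that missed the threshold does not show that the arms responded alike.

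**Figure D3:**
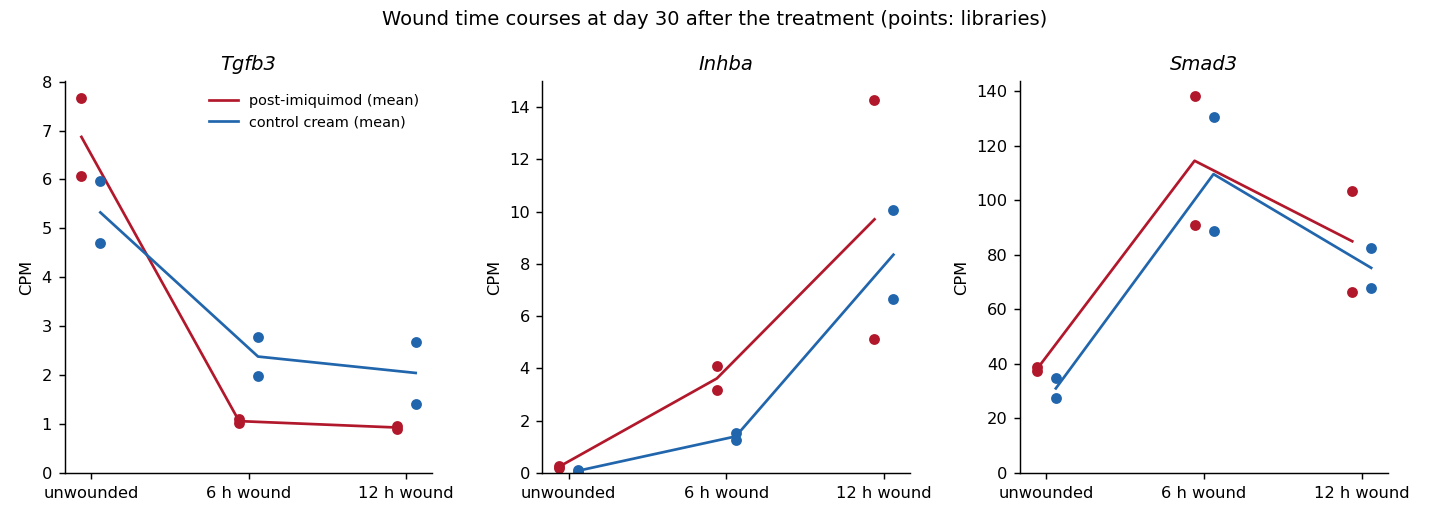
CPM of Tgfb3, Inhba and Smad3 in unwounded skin and 6 h and 12 h wounds, with 1 point per library and lines through the group means, red for post-imiquimod and blue for control. The red Tgfb3 points of both wound times lie under the blue ones, the red Inhba points lie over the blue ones at 6 h and overlap them at 12 h, and the Smad3 points overlap at both wound times.

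Between the wound times, none of the 10 genes was called by edgeR, where 0.173% of genes were called in post-imiquimod wounds and 0.647% in control wounds. At an unadjusted p under 0.05 there were 2 of the 10 in post-imiquimod wounds and 3 in control wounds, beside 1858 and 2381 of all 17299 genes. DESeq2 called 1 of the 10 in each arm, beside 344 of 14081 genes in post-imiquimod and 686 of 14081 in control wounds. Inhba was at 1.42 ± 0.55 in post-imiquimod wounds (12 h over 6 h, log2, edgeR, adjusted p = 0.357) and at 2.57 ± 0.58 in control wounds (edgeR, adjusted p = 0.0654). The control value passed with DESeq2 (2.55, adjusted p = 0.000973) and in an edgeR fit of the compared libraries alone (adjusted p = 0.0216). Tgfb2 was at -1.22 ± 0.34 in post-imiquimod wounds (edgeR, adjusted p = 0.21), passed there with the replicate block (-1.22, edgeR, adjusted p = 0.0469, too small across times) and with DESeq2 (-1.24, adjusted p = 0.0302), and was at -1.02 ± 0.34 in control wounds (edgeR, adjusted p = 0.194).

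A wider list of 57 pathway genes gave the setting: 5 further ligands, 11 genes of latency and activation, 6 receptors, 5 transducers, 14 inhibitors and 16 targets, of which 49 were tested. At day 6 imiquimod raised 8 and lowered 8 of the 49, at the same 36.6% background. Lrrc32, which encodes GARP, the surface anchor of latent TGF-beta, rose most, with 55.3 and 16.6 CPM in imiquimod skin, against 1.29 and 1.38 CPM in control skin (4.75 ± 0.74, edgeR, adjusted p = 5e-04). Inhbb, the beta-B chain of activin B, had 83.0 and 37.9 CPM in imiquimod skin, against 11 and 4.99 CPM in control skin (2.91 ± 0.41, edgeR, adjusted p = 0.000266). Ltbp4, a latent TGF-beta binding protein, had 31.9 and 35.2 CPM in imiquimod skin, against 116.8 and 165.6 CPM in control skin (-2.07 ± 0.21, edgeR, adjusted p = 2.35e-05). Fstl3, a secreted activin antagonist, fell by 1.44 ± 0.23 (edgeR, adjusted p = 0.000447). Fn1, fibronectin, was at -1.55 ± 0.39 (edgeR, adjusted p = 0.00759) but missed the threshold without the first imiquimod library (edgeR, adjusted p = 0.0692) or the second control library (edgeR, adjusted p = 0.0537). Hmga2, a chromatin protein induced by TGF-beta in epithelia, was at 2.12 ± 0.77 (edgeR, adjusted p = 0.0475) on 52 reads in imiquimod and 15 in control skin, and missed it without either second library (edgeR, adjusted p = 0.366 without that of imiquimod and 0.211 without that of control). The count of 16 was 9 without the second control library, where the calls over all genes were 4100 in place of 6333. Without both day 6 libraries numbered 1, Lrrc32 was at 3.58, Inhbb at 2.92, Ltbp4 at -2.23 and Fstl3 at -1.52, all of them called. Fn1 was not called there. Set against day 30, 3 of the 49 were higher and 7 lower in the difference of the imiquimod effects, led by Lrrc32 (3.85 ± 0.97), Inhbb (2.51 ± 0.56) and Usp15 (0.78 ± 0.21) above and Ltbp4 (-2.44 ± 0.29), Ctgf (-2.34 ± 0.70) and Tgfbr3, the co-receptor betaglycan (-1.46 ± 0.24), below. Of these, Lrrc32 (edgeR, adjusted p = 0.0153) missed the threshold without any 1 of 5 of the 8 libraries (0.0507 to 0.12), Usp15 (edgeR, adjusted p = 0.0182) without any 1 of 4 (0.06 to 0.0874) and Ctgf (edgeR, adjusted p = 0.0304) without any 1 of 4 (0.0787 to 0.1). That count of 10, at a background of 22.5%, was 5 without the second day 6 control library, where calls over all genes were 2459 in place of 3894. Leaving out both day 30 libraries numbered 1 ended the calls of Inhbb and Usp15, and leaving out both of day 6 ended that of Lrrc32.

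In wounds, 10 of the 49 rose and 11 fell at 6 h and 9 rose and 17 fell at 12 h in post-imiquimod skin, and 12 rose and 10 fell at 6 h and 11 rose and 15 fell at 12 h in control skin. The shares over all genes were 38.7% and 37.6% in post-imiquimod skin and 34.7% and 30.8% in control skin. The 6 h counts were sensitive to single libraries: 21 became 13 without the first post-imiquimod 6 h library, where calls over all genes were 5173 in place of 6695, and 22 became 11 without the second control 6 h library, where they were 3166 in place of 6003. Without both day 30 libraries numbered 1, Hmga2 was called in all 4 comparisons. Hmga2 was nearly absent from unwounded skin, with 2 reads over both post-imiquimod and 1 over both control libraries. In post-imiquimod skin it reached 10.1 and 8.61 CPM at 6 h and 16.8 and 35.3 CPM at 12 h, and in control skin 1.45 and 0.824 CPM at 6 h and 5.91 and 5.48 CPM at 12 h. The ratio of its summed reads to unwounded skin was 249 (95% counting interval 68.8 to 2060) at 6 h and 729 (202 to 6020) at 12 h in post-imiquimod skin, and 69.2 (12.2 to 2760) at 6 h and 310 (55.4 to 12300) at 12 h in control skin. All 4 comparisons called it (edgeR, adjusted p = 8.9e-05 and 4e-05 post-imiquimod, 0.00267 and 0.000237 control).

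Genes that carry or free latent ligand split in direction. Ltbp1 rose in both arms. It had 30.9 and 31.4 CPM at 6 h and 44.7 and 64.3 CPM at 12 h in post-imiquimod wounds, against 10.8 and 7.30 CPM unwounded (log2 change 1.79 ± 0.48 and 2.59 ± 0.49, edgeR, adjusted p = 0.0125 and 0.00189). In control wounds it had 24.1 and 27.3 CPM at 6 h and 32.9 and 29.3 CPM at 12 h, against 4.54 and 2.57 CPM unwounded (log2 change 2.88 ± 0.51 and 3.15 ± 0.51, edgeR, adjusted p = 0.00155 and 0.00112), and 3.30 and 3.56 without both day 30 libraries numbered 1. Thbs1, thrombospondin 1, which can activate latent TGF-beta, fell at 12 h to 349.9 and 339.9 CPM in post-imiquimod wounds, against 4929 and 5475 CPM unwounded (-3.92 ± 0.72, edgeR, adjusted p = 0.00164). In control wounds at 12 h Thbs1 had 351.4 and 308.7 CPM, against 7828 and 3225 CPM unwounded (-4.07 ± 0.72, edgeR, adjusted p = 0.00188). At 6 h it was at -2.94 ± 0.69 post-imiquimod (edgeR, adjusted p = 0.00625, but 0.0588 without the first 6 h library) and at -2.02 ± 0.66 in control wounds (edgeR, adjusted p = 0.0359, but 0.237 without the first unwounded library and 0.144 and 0.177 without either 6 h library). With the replicate block, the Thbs1 control call at 6 h was lost (edgeR, adjusted p = 0.121). Without both day 30 libraries numbered 1 Thbs1 was at -3.05 and -4.02 in post-imiquimod and -1.27 and -3.32 in control wounds, the 6 h control value not called (edgeR, adjusted p = 0.248). Ltbp2 fell at 6 h in post-imiquimod wounds (-3.15 ± 0.73, edgeR, adjusted p = 0.00432), at under 2 CPM in every library of the comparison, and missed the threshold without the first 6 h library (edgeR, adjusted p = 0.0611).

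Targets split as well. Itga5, the fibronectin-binding integrin chain, rose in post-imiquimod wounds to 37.7 and 42.3 CPM at 6 h and 64.8 and 116.3 CPM at 12 h, against 10.8 and 8.88 CPM unwounded (2.02 ± 0.43 and 3.20 ± 0.45, edgeR, adjusted p = 0.00366 and 0.000314; 2.14 and 3.32 without both day 30 libraries numbered 1). In control wounds Itga5 rose likewise, by 2.27 ± 0.44 at 6 h and 3.12 ± 0.45 at 12 h (edgeR, adjusted p = 0.00256 and 0.000565). Tgm2, transglutaminase 2, was called higher in control wounds at 6 h and 12 h (4.71 ± 0.87 and 3.92 ± 0.88, edgeR, adjusted p = 0.00129 and 0.005), from 3 reads over both unwounded libraries, a counting ratio of 26.9 (9.01 to 132) at 6 h and 13.2 (4.36 to 65.3) at 12 h. Its 12 h call was lost in a fit of the compared libraries alone (edgeR, adjusted p = 0.0588). In post-imiquimod skin, with 26 unwounded reads, Tgm2 was not called, and the counting ratio was 2.57 (1.68 to 4.07) at 6 h and 1.67 (1.07 to 2.69) at 12 h. At day 30 the ratio of post-imiquimod to control reads was 9.32 (2.86 to 48.1), and edgeR did not call it (adjusted p = 1).

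Fn1 fell at 12 h in post-imiquimod wounds to 0.661 and 0.444 CPM, against 7.47 and 5.06 CPM unwounded (-3.52 ± 0.45, edgeR, adjusted p = 0.000104). The difference between the arms in its 12 h wound effect was not called by edgeR. Fn1 was also the 1 gene of the 49 called between the wound times in post-imiquimod skin (12 h over 6 h, -2.70 ± 0.44, edgeR, adjusted p = 0.0317), and the 1 called in the average over day 30 and both wound times, where it was lower in post-imiquimod than in control skin (-1.48 ± 0.24, edgeR, adjusted p = 0.0249). The 12 h over 6 h call was lost without any 1 of its 4 libraries (edgeR, adjusted p = 0.116 to 0.351). The averaged call was lost without the second day 30 post-imiquimod library (edgeR, adjusted p = 0.107) or any 1 of the 8 wound libraries (edgeR, adjusted p = 0.0571 to 0.142). With the replicate block, 5 of the 49 genes were called between the wound times in post-imiquimod skin and 11 in control skin, where there were none without it, and 3 in the average. Over all genes the block called 635 in place of 30 between the wound times in post-imiquimod skin, 1296 in place of 112 in control skin, and 105 in place of 35 in the average. Its p-values across times are too small, for the reason given for Tgfb1. Bhlhe40, a transcription factor gene, fell in control wounds at 6 h and 12 h (-1.69 ± 0.29 and -2.73 ± 0.30, edgeR, adjusted p = 0.000845 and 6.75e-05) and in post-imiquimod wounds at 12 h (-2.71 ± 0.30, edgeR, adjusted p = 4.39e-05) and 6 h (-2.01 ± 0.29, edgeR, adjusted p = 0.000209). Bambi, a decoy receptor that blocks the pathway, fell in post-imiquimod wounds at 6 h, to 1.24 and 1.97 CPM, against 11 and 5.30 CPM unwounded (-2.36 ± 0.51, edgeR, adjusted p = 0.00276), and in control wounds at 12 h, to 1.35 and 1.79 CPM, against 15.1 and 4.78 CPM unwounded (-2.65 ± 0.51, edgeR, adjusted p = 0.00188). It fell likewise in post-imiquimod wounds at 12 h, to 1.35 and 1.43 CPM (-2.54 ± 0.51, edgeR, adjusted p = 0.00178), and was at -1.20 ± 0.48 in control wounds at 6 h (edgeR, adjusted p = 0.069). The size of the 12 h control change was -1.61 without the first unwounded library, which carries Y-linked reads, and the 6 h post-imiquimod change was -1.78 without both day 30 libraries numbered 1. Tgif2, a corepressor, was called lower in control wounds at 6 h (-1.51 ± 0.52, edgeR, adjusted p = 0.0394), a call lost without the first 6 h library (edgeR, adjusted p = 0.264) or either unwounded library (edgeR, adjusted p = 0.0855 and 0.102).

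Between the arms, edgeR called none of the 49 in 6 h or 12 h wounds, where 8 and 3 had an unadjusted p under 0.05, beside 1091 and 425 of all 17299 genes, and DESeq2 called 2 at each time, beside 131 of 14081 and 27 of 17067 genes. At day 30 edgeR and DESeq2 called none, with 7 at an unadjusted p under 0.05, beside 716 of all genes. The wound effects of the arms differed in none of the 49 by edgeR or DESeq2, with 6 at 6 h and 4 at 12 h at an unadjusted p under 0.05, beside 1057 and 503 of all genes. Between wound times in control skin edgeR called none, 14 had an unadjusted p under 0.05, beside 2381 of all genes, and DESeq2 called 8, beside 686 of 14081.

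**Figure D4:**
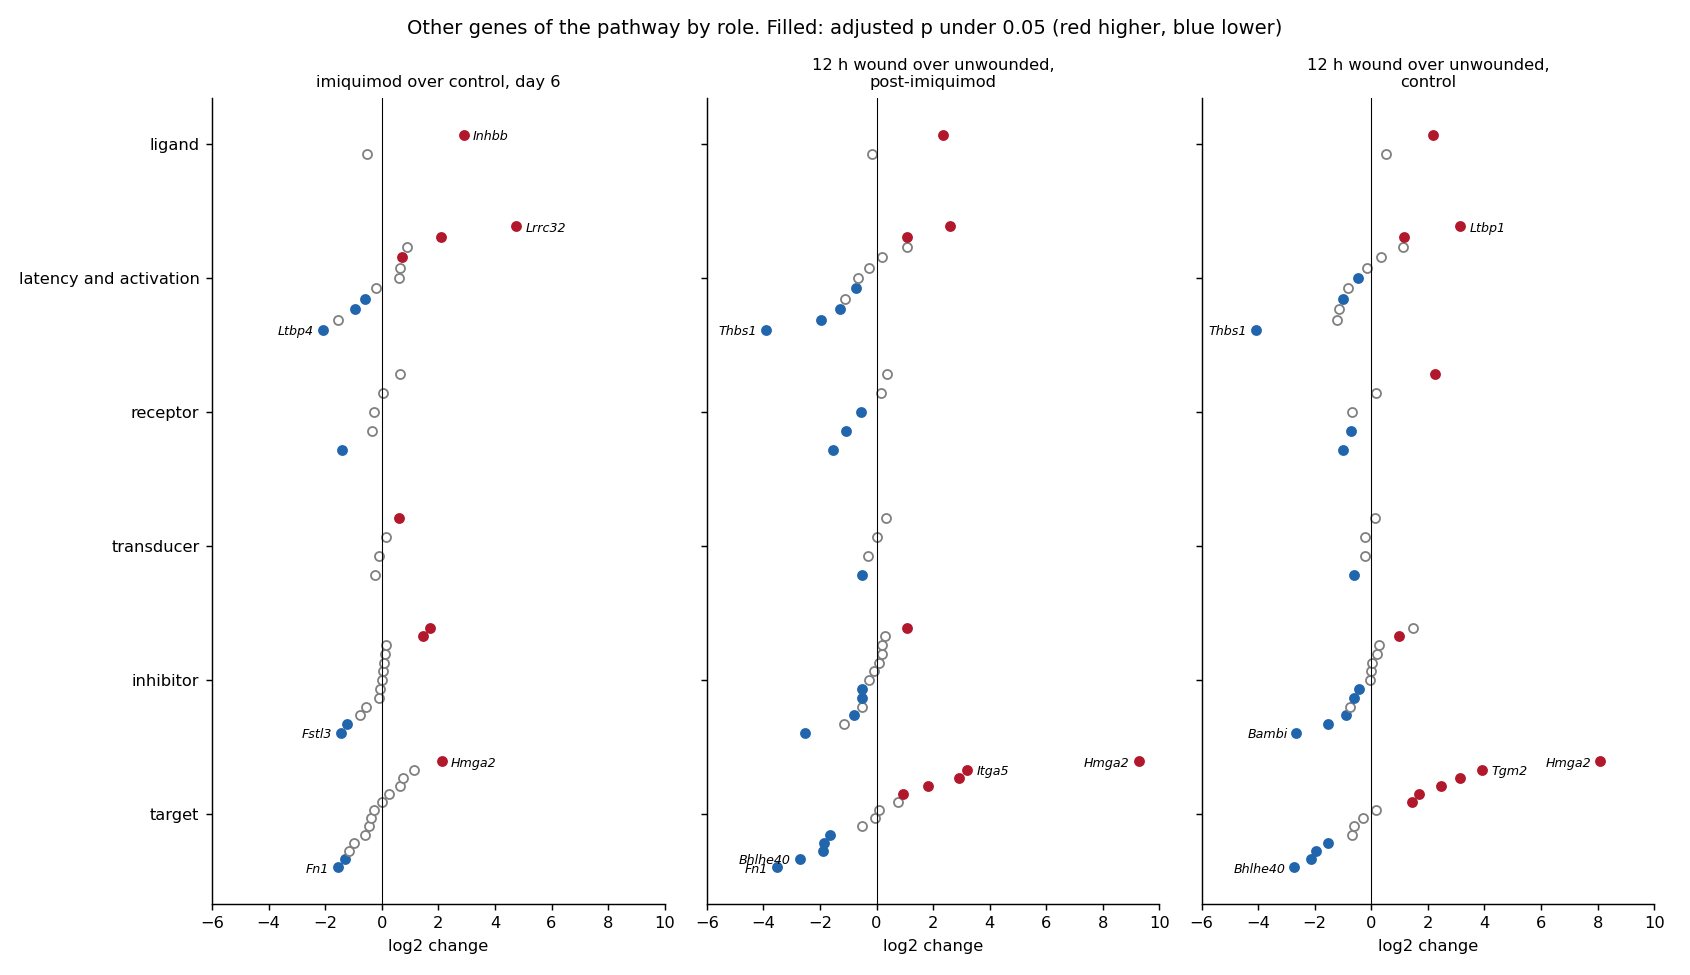
Log2 change of the 49 tested genes of the wider list, by role, for imiquimod over control at day 6 and for 12 h wounds over unwounded skin in post-imiquimod and control mice, filled where the adjusted p was under 0.05. Of the 11 genes of latency and activation, 3 lie higher and 3 lower at day 6, where 36.6% of all genes were called. Of the 14 targets tested, 5 rose and 5 fell in post-imiquimod and 6 rose and 4 fell in control 12 h wounds. The shares over all genes there were 37.6% in post-imiquimod and 30.8% in control wounds.

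Likeness of pattern was described over the 16 libraries by the Pearson correlation of log2 CPM, with no test, since libraries of a group share their condition. Among the 10 genes, Tgfbr1 and Tgfbr2 were most alike (r = 0.977), then Tgfbr2 and Smad3 (r = 0.924), and Tgfb3 ran most against Tgfbr1 (r = -0.872). Among 10331 genes compared, those most like Inhba were Mmp13, which encodes collagenase 3 (r = 0.948), Rapgef3 (r = 0.942) and St3gal2 (r = 0.937). Most like Tgfb3 were Pimreg (r = 0.955), Neurl1b (r = 0.948) and Odf2 (r = 0.945), and most like Tgfb2 were Plekha3 (r = 0.958), Crim1 (r = 0.95) and Cdh13, which encodes T-cadherin (r = 0.946). Most like Smad3 were Prkca, which encodes protein kinase C alpha (r = 0.969), Fpgs (r = 0.958) and Rras2 (r = 0.957).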

How the data were processed

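Per the labels, total RNA of sorted cells was made into 16 TruSeq RNA-seq libraries, 2 for each of 8 groups. Per the submitters' processing notes, reads were aligned to mm10 with STAR; its version, the annotation and the strand setting were not given in what was read here. The authors deposited raw counts of reads per Ensembl gene, and the unstranded column was used, so overlapping and antisense genes cannot be told apart. Of 47729 gene IDs, 47224 matched a symbol; rows that name no gene were left out. The 12 ATAC-seq samples were not analysed here.

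Counts were scaled by TMM and fitted with edgeR 4.0.16 in R 4.3.3 (limma 3.58.1), 1 mean per group for the 16 libraries together (8 residual degrees of freedom). filterByExpr kept 17299 of 30802 genes with a read. The quasi-likelihood F test was two-sided, with Benjamini-Hochberg adjustment over all genes tested and a threshold of 0.05; an SE is the log2 change over the square root of F. The common biological coefficient of variation was 23.03%. An exact permutation test of 2 libraries against 2 cannot go below 0.333. The code was tested on simulated counts. Replicates differed beyond sampling noise in every group (chi-square per gene 22.73 to 201.7).

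Libraries of the same replicate number deviated together within a time (r = 0.22 at day 6, 0.452 at day 30, 0.539 at 6 h and 0.323 at 12 h over 17299 genes; with 2 libraries a group, both pairs of a time give the same r), so the numbers were taken to pair the libraries, a pairing that comes from these correlations and not from the labels. The block is the number within each time. In comparisons across times (wounded against unwounded, 12 h against 6 h) it takes the spread between numbers out of the error, although the numbers pair no libraries across times, so those blocked p-values are too small. Blocked values stand beside results where they change a call.

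The 10 genes, the wider list and the marker lists were chosen with earlier results of these data known. All 10 are named; from the wider list, up to 3 genes per direction and comparison with the largest change past the threshold, of which 1 is not reported here; as alike, the 3 most correlated genes whose mean log2 CPM reached 2 (prior count 2) for the 4 members of widest range. Alternatives were RLE scaling, no filter on low counts, the replicate block, the compared libraries alone, each library left out, both day 30 libraries numbered 1 left out, and DESeq2 1.42.0; leaving out both day 6 libraries numbered 1 was added after seeing the data. Summed marker levels not given above were at most 1.47 CPM for T cells, 13.4 for endothelium and 9.53 for melanocytes. Counting intervals are exact binomial at 95%.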

Additional observations from a re-analysis of the deposited data

Results flagged for a closer look

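The effect of imiquimod at day 6 differed from that at day 30, by a test of the difference itself, for 4 of the 10 genes, at a background of 22.5% of all genes. The Smad3 and Tgfbi calls were lost on leaving out any 1 of 5 and any 1 of 6 of the 8 libraries (edgeR, adjusted p = 0.0541 to 0.0739 and 0.0513 to 0.0818), while those of Tgfb2 and Skil were kept. On the log2 scale, day 6 minus day 30, the difference was -3.04 for Tgfb2, -1.34 for Smad3, -1.41 for Tgfbi and 1.47 for Skil. In imiquimod skin at day 6 the means were 0.88 CPM for Tgfb2, 17.6 CPM for Smad3, 532.3 CPM for Tgfbi and 73.6 CPM for Skil, against 5.34, 36.0, 1188 and 31.4 CPM in control skin of day 6. In post-imiquimod skin at day 30 they were 6.19, 38.1, 1504 and 120.4 CPM, against 4.60, 31.0, 1267 and 141.9 CPM in control skin of day 30.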

How the results depend on the processing

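Of 140 pairs of a member and a comparison, 34 passed the threshold, 25 of them under every alternative run, and 14 passed under an alternative only; no pair that ever passed reversed. Of the 92 that passed in no fit, 46 changed sign under some alternative. Without the filter on low counts, 1 member was called between the arms in 6 h wounds, 1 in the average over day 30 and the wound times and 1 between wound times in each arm (Inhba each time), against 0 with it. Calls over all genes rose there too. They were 441 in place of 6 between the arms at 6 h and 532 in place of 35 in the average. Between wound times they were 624 in place of 30 in post-imiquimod and 980 in place of 112 in control wounds. Between wound times, 1 member was also called with DESeq2 in each arm, with the compared libraries alone in control wounds and with the replicate block in post-imiquimod wounds. Calls over all genes were 344 with DESeq2 and 635 with the block in post-imiquimod wounds. In control wounds they were 686 with DESeq2 and 316 with the compared libraries alone. For the difference between day 6 and day 30, leaving out 1 library gave 2 to 4 members, against 4. The causes were not tested. Leaving out 1 library of a group takes the spread of the lone one from the other groups. Leaving out both day 6 libraries numbered 1 ended the day 6 calls of Smad3 (-0.74, edgeR, adjusted p = 0.201) and Tgfbi (-0.76, edgeR, adjusted p = 0.113); leaving out both day 30 libraries numbered 1 ended the wound calls of Tgfb3 in control skin and Smad7 in post-imiquimod skin. The replicate block changed no other member call than those printed with it. The few reads of Inhba, Hmga2 and Tgm2 at day 30 limit their folds.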

Other observations

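In control skin Skil had 133 and 150.8 CPM at day 30, against 36.6 and 26.1 CPM at day 6. Bambi likewise had 15.1 and 4.78 CPM in control skin at day 30, against 1.89 and 1.83 CPM at day 6, and Thbs1 had 7828 and 3225 CPM at day 30, against 1883 and 941.6 CPM at day 6. No test was run between these groups, which also differ in the age of the mice. The first day 30 control library, which carries Y-linked reads, had the higher of the 2 Bambi and Thbs1 values. Skil, Bambi and Thbs1 were chosen after their values were seen, and their wound changes above were taken against day 30 skin only.

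Hmga2, chosen after its values were seen, had the largest log2 difference between the arms of the 49 tested genes of the wider list in 6 h wounds: 10.1 and 8.61 CPM in post-imiquimod 6 h wounds, against 1.45 and 0.824 CPM in control 6 h wounds, and 16.8 and 35.3 CPM in post-imiquimod 12 h wounds, against 5.91 and 5.48 CPM in control 12 h wounds. The log2 difference was 3.00 ± 0.61 at 6 h (edgeR, unadjusted p = 0.000348, adjusted p = 0.211) and 2.20 ± 0.57 at 12 h (edgeR, unadjusted p = 0.00229, adjusted p = 0.994), so neither passed over all genes.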
